A study of Mus musculus with 3 samples.

Results

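Flt3, Csf1r, Kit, Csf2ra, Il3ra, Csf2rb, Csf2rb2 and Csf3r encode the receptors through which growth factors and colony-stimulating factors reach myeloid cells and their precursors. These 8 genes were taken by name: every probe set of the array whose only annotated gene is one of them was used, which gave 8 probe sets of 35556, 1 for each gene, and 8 of the 19938 genes that the annotation names. They were read in 3 populations of CD11c(hi) CD11b+ dendritic cells (DCs, cells that display antigen to T cells) sorted from mouse spleen. The first was the Esam(lo) GFP(hi) population of Cx3cr1-GFP mice that carry floxed Rbpj (RBPJflox/flox) and CD11c-Cre, a Cre driven by the promoter of the gene for CD11c, and in which CD11b+ DCs were uniformly of this phenotype per the labels. The others were the Esam(hi) GFP(lo) and the Esam(lo) GFP(hi) populations of control mice, littermates with Cx3cr1-GFP and the floxed alleles but no Cre. Every group therefore carries the GFP reporter in Cx3cr1, and each was measured on 1 Affymetrix Mouse Gene 1.0 ST array of RNA from the pooled spleens of 2 to 3 mice. The labels give no age or sex.

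Flt3, Csf1r and Kit are class III receptor tyrosine kinases, which dimerise and phosphorylate themselves when Flt3 ligand, M-CSF or interleukin-34, or stem cell factor binds. The receptors for GM-CSF and interleukin-3 pair a ligand-binding alpha chain (Csf2ra, Il3ra) with a signalling beta chain that carries the kinase Jak2. Mice have 2 such beta chains, the common chain Csf2rb and the interleukin-3 chain Csf2rb2. Csf3r, the receptor for G-CSF, works as a homodimer. Flt3 is needed for the growth of DCs from their bone marrow precursors, Csf1r for most monocytes and macrophages, and Csf3r for the output of neutrophils.

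Esam(hi) cells of control mice had less Csf1r and Csf3r signal than Esam(lo) cells of control mice. Csf2rb2 was also 2-fold lower as deposited, but not with quantile normalization or after subtraction of the median of genes of like level, while Flt3, Kit, Csf2ra, Il3ra and Csf2rb differed by less than 2-fold. None of the 8 genes was 2-fold apart between the array labelled RBPJ-deficient and the control Esam(lo) array, where the largest difference was that of Csf2rb2 (-0.47). Values are log2 expression values. Each group is a single array, without replicates, so no test was possible, differences compare arrays, and fewer cells of a type cannot be told apart from less RNA per cell.

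**Figure D1:**
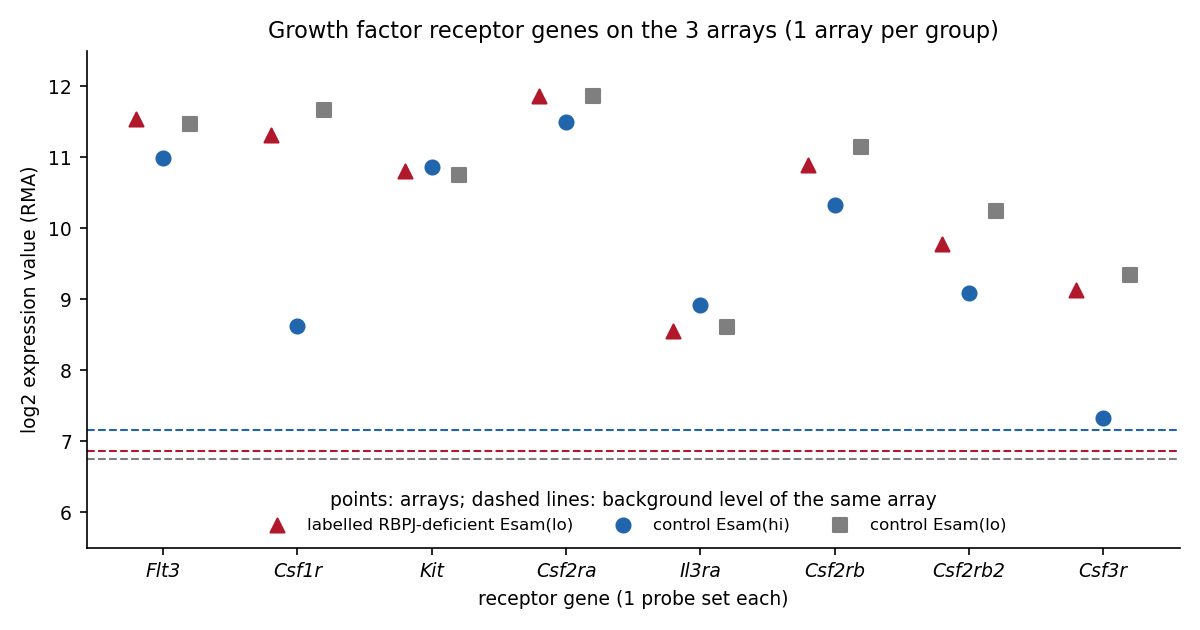
Log2 expression value (vertical axis) of the 8 receptor genes (horizontal axis) on the array labelled RBPJ-deficient (red triangles), the control Esam(hi) array (blue circles) and the control Esam(lo) array (grey squares), 1 array each; dashed lines are the background level of the array of the same colour. Csf1r and Csf3r lie far lower on the control Esam(hi) array (8.62 and 7.34) than on the other arrays, and all 24 values lie above their array's background.

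Background was set at percentile 95 of the values of 1190 odorant and pheromone receptor genes, which are silent in most tissues outside the nose. It lay at 6.87 on the array labelled RBPJ-deficient, 7.16 on the control Esam(hi) array and 6.75 on the control Esam(lo) array. Rbpj itself (probe set 10521913) read 10.04 on the array labelled RBPJ-deficient, 9.85 on the control Esam(hi) array and 9.85 on the control Esam(lo) array. It was thus not lower in the cells meant to lack it, and a further Rbpj probe set (10521911) did not exceed background on any array. Whether its probes lie in the deleted part is not known here, so the values do not check the label and that array is named by its label throughout. Esam was above background on the control Esam(hi) array alone (7.79), and Itgax (CD11c) was high on all 3, within 0.13 of each other. All 8 classical DC markers, among them H2-Ab1 and Cd74, were above background on every array.

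The control comparison had a general shift. Over all 9489 genes above background the median of control Esam(hi) minus control Esam(lo) came to -0.30, and 11.2% of them were at least 2-fold lower on the control Esam(hi) array against 0.79% higher. The median became -0.11 with quantile normalization and -0.40 with the arrays centred on their medians. The shift changed with level, so each difference below is also given after subtraction of the running median of genes of like level, called here the level trend. Lower genes were 93.4% of those 2-fold apart as deposited, 96.9% with median centring, 81.3% with quantile normalization and 69.7% with the trend removed.

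**Figure D2:**
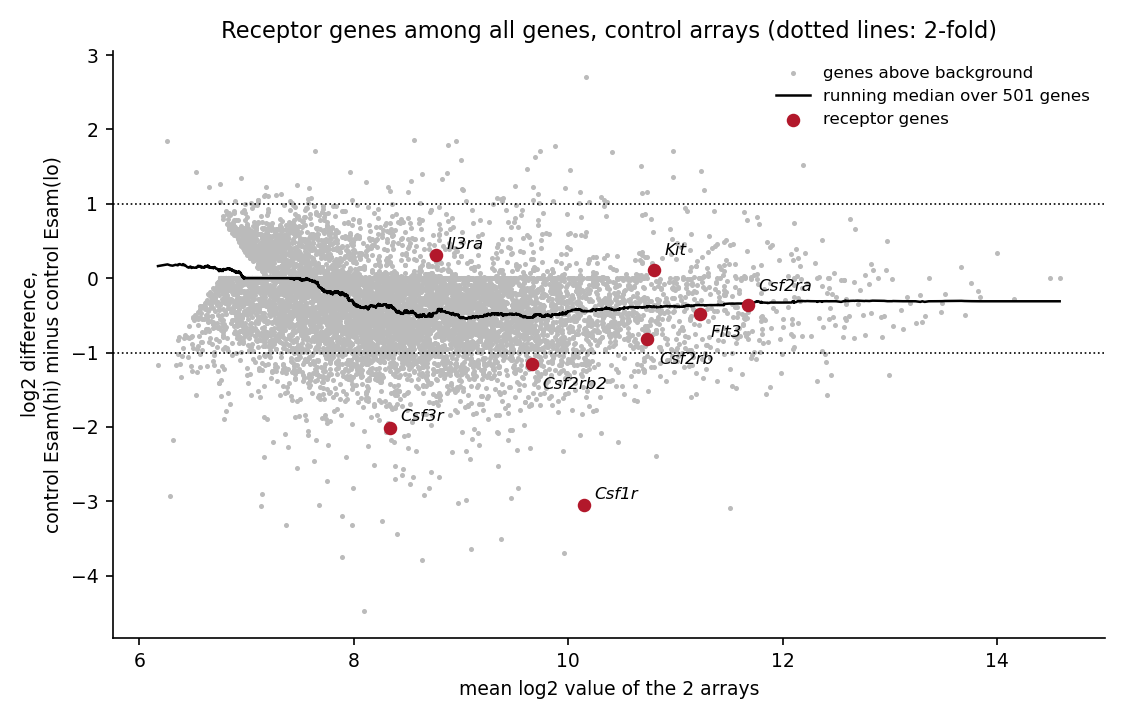
Log2 value on the control Esam(hi) array less that on the control Esam(lo) array (vertical axis) against the mean log2 value of both arrays (horizontal axis) for all genes above background (grey), with the 8 receptor genes in red and the running median as a black line; dotted lines mark 2-fold. Csf1r and Csf3r lie far below the running median, Csf2rb2 just past 2-fold, Flt3 and Csf2ra close to the running median, and Kit and Il3ra above it.

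The promoter sequences of the receptors were searched for short motifs of factors that are known to act at such genes. Windows of 250 bases upstream of a RefSeq transcript start (GRCm38.p6) were searched for 6 of the 8 genes, Flt3, Kit, Csf2ra, Il3ra, Csf2rb2 and Csf3r. Csf1r and Csf2rb were not searched, although Csf1r was also 2-fold lower on the control Esam(hi) than on the control Esam(lo) array. Motifs were sought on both strands: GAGGAAG for the ETS factor PU.1, TGGGAA for the core of an RBPJ site, TTCNNNGAA for STATs, TTGCNNAA for C/EBP factors and TGTGGT for RUNX factors. The PU.1 letters were in 4 of the 6 windows, those of Kit, Csf2ra, Csf2rb2 and Csf3r, and in 10.6% of 32851 promoter windows of that length. The RBPJ letters were in 1 of 6, Csf2ra, and in 21.6% of all. STAT letters were in Csf2rb2 alone (7.02% of all), C/EBP letters in Il3ra alone (9.56%) and RUNX letters in none (14.0%). A match in these windows is a description of the letters and not a site.

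The windows below are those of the searched genes 2-fold lower on the control Esam(hi) array, Csf3r and Csf2rb2. Those of Csf2ra, which holds the RBPJ letters, and of Flt3, which holds none of the 5 motifs, are added. Each is written 5′ to 3′ on the gene's strand, ends at the base before the transcript start, and has the motif matches in capitals. The windows are chr4:126024409-126024658 (plus strand) for Csf3r, chr15:78305722-78305971 (minus strand) for Csf2rb2, chr19:61228419-61228668 (minus strand) for Csf2ra and chr5:147400490-147400739 (minus strand) for Flt3. In Csf3r the PU.1 letters begin 86 bases upstream of the start. In Csf2rb2 they lie on the opposite strand 168 bases upstream, with the palindromic STAT letters 15 bases upstream. In Csf2ra the PU.1 letters occur at 14 and again at 8 bases upstream, sharing 1 base, and the RBPJ letters on the opposite strand at 30.
Csf3r: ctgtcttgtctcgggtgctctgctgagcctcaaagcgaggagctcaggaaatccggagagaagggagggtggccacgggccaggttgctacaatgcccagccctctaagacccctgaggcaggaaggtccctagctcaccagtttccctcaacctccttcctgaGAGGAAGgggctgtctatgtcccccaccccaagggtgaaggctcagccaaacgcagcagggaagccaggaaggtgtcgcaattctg
Csf2rb2: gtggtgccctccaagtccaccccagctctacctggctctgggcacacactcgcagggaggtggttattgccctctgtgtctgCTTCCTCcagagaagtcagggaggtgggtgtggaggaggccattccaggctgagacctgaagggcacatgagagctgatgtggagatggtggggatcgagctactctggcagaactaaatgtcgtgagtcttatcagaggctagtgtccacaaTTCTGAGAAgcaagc
Csf2ra: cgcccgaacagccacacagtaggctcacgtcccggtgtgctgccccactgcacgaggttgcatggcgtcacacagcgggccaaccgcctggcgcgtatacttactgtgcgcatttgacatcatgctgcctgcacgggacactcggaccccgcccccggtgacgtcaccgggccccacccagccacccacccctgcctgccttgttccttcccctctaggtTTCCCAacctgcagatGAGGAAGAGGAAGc
Flt3: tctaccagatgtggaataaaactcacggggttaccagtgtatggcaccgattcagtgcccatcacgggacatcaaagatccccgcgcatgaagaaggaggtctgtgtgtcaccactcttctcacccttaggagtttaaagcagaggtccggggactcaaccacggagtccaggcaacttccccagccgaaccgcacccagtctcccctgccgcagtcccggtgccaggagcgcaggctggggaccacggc

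Csf1r (probe set 10456071), which carries the signals that keep monocytes and macrophages alive, had the widest range of the 8 genes. It read 11.31 on the array labelled RBPJ-deficient, 8.62 on the control Esam(hi) array and 11.67 on the control Esam(lo) array. The control Esam(hi) array alone was low. The control Esam(hi) value less the control Esam(lo) value was -3.05, or 8.29-fold, and with the trend removed it was -2.61, or 6.09-fold. It ranked 15 from the lowest of 9489 genes. The array labelled RBPJ-deficient was 6.47-fold above the control Esam(hi) array (11.31 against 8.62, difference 2.69, and 2.20 with the trend removed) and 0.36 below the control Esam(lo) array. The signal on the control Esam(hi) array was still 1.46 above background.

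Flt3 (probe set 10535780), whose ligand drives DC growth, read 11.54 on the array labelled RBPJ-deficient, 10.99 on the control Esam(hi) array and 11.47 on the control Esam(lo) array. All 3 values were well above background and lay within 0.54 of each other. The control Esam(hi) value less the control Esam(lo) value was -0.48, where genes of like level had a median of -0.36, which leaves -0.11 with the trend removed. Between the array labelled RBPJ-deficient and the control Esam(lo) array it was 0.07. Flt3 therefore did not pass the 2-fold rule in any comparison.

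Kit (probe set 10522530), the receptor for stem cell factor known from blood stem cells and mast cells, varied least on the deposited values, while with the trend removed Csf2ra did. It read 10.80 on the array labelled RBPJ-deficient, 10.86 on the control Esam(hi) array and 10.75 on the control Esam(lo) array. The control Esam(hi) value less the control Esam(lo) value, 0.11 as deposited, was 0.50 with the trend removed and -0.002 with the arrays centred on their medians, so its sign depends on the scaling. Of 7 markers of mast cells, basophils and progenitors, 3 were above background on the array labelled RBPJ-deficient, 1 on the control Esam(hi) array and 3 on the control Esam(lo) array. Cpa3, Ms4a2, Fcer1a and Gata2 were below background on all 3. The basophil protease gene Mcpt8 and the progenitor marker Cd34 were just above it on both Esam(lo) arrays. Their values hardly differed, with Cd34 at 6.91 on all 3 arrays. Mcpt8 read 7.01 on the array labelled RBPJ-deficient, 6.97 on the control Esam(hi) array and 7.05 on the control Esam(lo) array. Their loss from the count on the control Esam(hi) array thus comes with its higher background (7.16). Hdc, the histamine-forming enzyme, read 9.01 on the array labelled RBPJ-deficient, 7.84 on the control Esam(hi) array and 8.78 on the control Esam(lo) array. The summed linear signal of the 7 was 1015 on the array labelled RBPJ-deficient, 744 on the control Esam(hi) array and 934 on the control Esam(lo) array. Such sums, here and below, include values below background and are weighted to the brightest genes, so they do not measure cell content. The part of mast cells, basophils and progenitors in the Kit values was not tested.

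The alpha chains stayed within 2-fold. Csf2ra (probe set 10468893), which binds GM-CSF, read 11.86 on the array labelled RBPJ-deficient, 11.49 on the control Esam(hi) array and 11.86 on the control Esam(lo) array. The Esam(lo) arrays held exactly the same value, and an exact tie was found for 41.4% of the 9594 genes above background in that pair. With the trend removed, the difference between control Esam(hi) and control Esam(lo) was -0.03. Il3ra (probe set 10412760), the alpha chain for interleukin-3 and a marker of plasmacytoid DCs in humans, ran the other way. It read 8.56 on the array labelled RBPJ-deficient, 8.92 on the control Esam(hi) array and 8.61 on the control Esam(lo) array, so that the control Esam(hi) array was the highest. The control Esam(hi) value less the control Esam(lo) value was 0.31 as deposited, or 1.24-fold, and 0.78 with the trend removed, or 1.72-fold, still short of 2-fold. It kept its sign in all scalings tried, from 0.20 to 0.78. Of the 6 plasmacytoid DC markers with a probe set, 4 were above background on each array. Siglech and Pacsin1 were below it throughout, and Ccr9, Bst2, Tcf4 and Cox6a2 above it throughout. Of these, Tcf4 was 2.32-fold lower on the control Esam(hi) than on the control Esam(lo) array (8.34 against 9.55), but not with the trend removed (-0.72). Cox6a2 went the other way (8.60 against 7.95) and was 2-fold higher with the trend removed (1.01). Tcf4 was the brightest of the 6 on both Esam(lo) arrays and so weighs most in their sums. The summed linear signal of the 6 was 1933 on the array labelled RBPJ-deficient, 1334 on the control Esam(hi) array and 1722 on the control Esam(lo) array. Their part in the Il3ra values was not tested.

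Both beta chains had the same order of arrays, with the control Esam(lo) array highest and the control Esam(hi) array lowest. Csf2rb (probe set 10425066), shared by the receptors for GM-CSF, interleukin-3 and interleukin-5, read 10.89 on the array labelled RBPJ-deficient, 10.33 on the control Esam(hi) array and 11.15 on the control Esam(lo) array. Its difference between control Esam(hi) and control Esam(lo), -0.82 or 1.77-fold, was -0.44 with the trend removed. Csf2rb2 (probe set 10430302) read 9.77 on the array labelled RBPJ-deficient, 9.08 on the control Esam(hi) array and 10.24 on the control Esam(lo) array. It was 2.23-fold lower on the control Esam(hi) than on the control Esam(lo) array (-1.16), a call lost under quantile normalization (-0.83) and after removal of the trend (-0.63). Both genes lie on chromosome 15 and have closely related coding sequences, and how far their probes share signal was not tested, so the 2 values may not be separate measurements.

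Csf3r (probe set 10508074) read 9.13 on the array labelled RBPJ-deficient, 7.34 on the control Esam(hi) array and 9.34 on the control Esam(lo) array. On the control Esam(hi) array it stood 0.17 above background, the closest of the 24 values. The control Esam(hi) value less the control Esam(lo) value was -2.01, or 4.02-fold, and -1.64, or 3.12-fold, with the trend removed. It ranked 77 from the lowest of 9489 genes. The array labelled RBPJ-deficient was 3.47-fold above the control Esam(hi) array (1.79, and 1.41 with the trend removed) and 0.21 below the control Esam(lo) array.

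Markers of other myeloid cells and of CD8+ DCs differed between the same arrays. Of 12 neutrophil markers, 10 were above background on the array labelled RBPJ-deficient, 8 on the control Esam(hi) array and 11 on the control Esam(lo) array, with summed linear signals of 21978, 9232 and 20075 in that order of arrays. In the control comparison 6 of 11 were 2-fold lower and none higher on the control Esam(hi) array (median -1.07), where 11.2% of all genes were lower. With the trend removed 3 were lower, 1 of them (Mmp8) below background on the control Esam(hi) array, and 1 was higher. Over all 9489 genes 456 were lower and 198 higher with the trend removed. S100a8 read 8.35 on the control Esam(hi) array and 10.53 on the control Esam(lo) array. The granule enzyme genes Mpo (9.28 and 8.31) and Elane (8.95 and 8.60) went the other way, with the control Esam(hi) value first in each pair. Cxcr2, the chemokine receptor of mature neutrophils, was below background on all 3 arrays, and Ly6g read 7.97, 6.97 and 7.67 on the array labelled RBPJ-deficient, the control Esam(hi) array, where it was below background, and the control Esam(lo) array. All 13 monocyte markers with a probe set were above background on the array labelled RBPJ-deficient, 9 on the control Esam(hi) array and 13 on the control Esam(lo) array. Their summed linear signals were 32088 on the array labelled RBPJ-deficient, 13946 on the control Esam(hi) array and 31671 on the control Esam(lo) array. Nr4a1, the brightest of the 13 on each array, read 13.36 on all 3. Of the 13, 12 were 2-fold lower on the control Esam(hi) than on the control Esam(lo) array, or 10 with the trend removed. Among those 10, Ccr2, Cd14, F13a1 and Adgre4 were below background on the control Esam(hi) array. Of 10 splenic macrophage markers 7, 4 and 7 were above background on the same arrays, with Mertk, Cd163 and Marco below it on all 3 and summed linear signals of 3749, 2348 and 3955. Of 8 CD8+ DC markers 5, 3 and 5 were above background on the same arrays, with summed linear signals of 3800, 1762 and 3863, and Cd8a, Xcr1 and Itgae were below it on all 3. Naaa (11.13, 8.78 and 11.11) was the brightest of them on the Esam(lo) arrays. Tlr3 hardly differed (7.17, 7.03 and 7.17) and left the count on the control Esam(hi) array with its higher background (7.16). Of the 5 compared, 2 were 2-fold lower on the control Esam(hi) than on the control Esam(lo) array, Naaa (5.03-fold) and Clec9a (at least 4.11-fold). Ly75 (8.20 and 7.32) and Batf3 (9.16 and 9.03) were higher on the control Esam(hi) array, whose value is given first, without reaching 2-fold. With the trend removed 2 of the 5 were 2-fold lower, Naaa and Clec9a, the latter below background on the control Esam(hi) array. Ly75 was 2-fold higher (1.07). The part of these cells in the Csf1r, Csf3r, Csf2rb2 and Irf8 values was not tested.

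**Figure D3:**
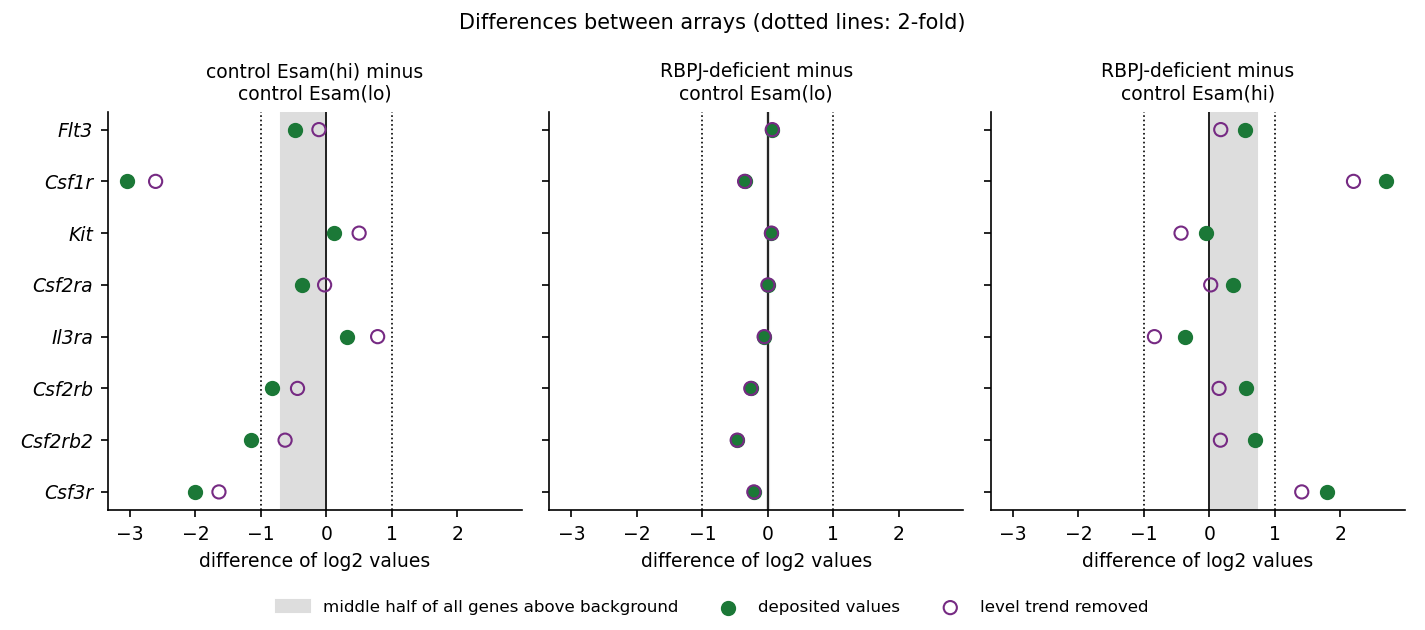
Difference of log2 values (horizontal axes) of the 8 receptor genes in the 3 comparisons, as deposited (green) and with the level trend removed (open purple); grey bands span the 1st to the 3rd quartile of all genes above background and dotted lines mark 2-fold. Csf1r and Csf3r stand outside 2-fold on both scales in the comparisons with the control Esam(hi) array, and no gene does between the Esam(lo) arrays.

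Counted together, 3 of the 8 genes fell by 2-fold or more on the control Esam(hi) array relative to control Esam(lo), and none rose, against 11.2% lower and 0.79% higher among all genes. The members' median difference was -0.65 against -0.30 for all genes, and -0.28 with the trend removed, with 6 genes below 0 and 2 (Kit and Il3ra) above it. Against the same control Esam(hi) array, 2 of the 8 (Csf1r and Csf3r) were 2-fold higher and none lower on the array labelled RBPJ-deficient, where 12.9% and 1.18% of 9319 genes were. The median was 0.55 against 0.31 for all genes. Higher genes were 91.6% of all those 2-fold apart there, 95.6% with median centring, 77.3% with quantile normalization and 69.8% with the trend removed. These comparisons share the control Esam(hi) array, so they do not count as separate evidence.

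Between the array labelled RBPJ-deficient and the control Esam(lo) array none of the 8 genes was 2-fold apart. Among all 9594 genes above background 0.073% were 2-fold higher and 0.188% lower. Most genes hardly differed in this pair, with quartiles of -0.02 and 0.02. Csf2rb2 differed by -0.47, or 1.38-fold, and ranked 60 from the lowest, and Csf1r by -0.36, or 1.28-fold, and ranked 132. Csf2rb (-0.26) and Csf3r (-0.21) also had lower values on the array labelled RBPJ-deficient, while Il3ra differed by -0.06, Kit by 0.05 and Flt3 by 0.07. On a scale that runs from 0 (control Esam(lo)) to 1 (control Esam(hi)), the array labelled RBPJ-deficient lay at 0.11 for Csf3r, 0.12 for Csf1r, 0.32 for Csf2rb and 0.40 for Csf2rb2. It lay at 0.49 for Kit, whose control values are only 0.11 apart, at 0 for Csf2ra, and outside the scale at -0.14 for Flt3 and -0.18 for Il3ra. No array-to-array error is available for judging differences of this size.

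The pathway around the receptors was read in gene lists of its parts. Of the 8 ligands, only Flt3l, the ligand of Flt3, was above background, at 8.37 on all 3 arrays. Csf1, Il34, Csf2, Csf3, Kitl, Il3 and Il5 were below background on each array. So were the receptor relatives Il5ra, Pdgfra and Pdgfrb.

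Some of the Janus kinases and STATs carry the signal of the beta chains and of Csf3r. Of the 9 with a probe set, none was 2-fold apart in any comparison. Their median difference between control Esam(hi) and control Esam(lo) was -0.27, close to the -0.30 of all genes. Jak2, the kinase bound to the beta chains, read 10.86 on the array labelled RBPJ-deficient, 10.85 on the control Esam(hi) array and 10.86 on the control Esam(lo) array. Stat5a read 9.58, 9.13 and 9.63, and Stat5b 9.43, 8.76 and 9.44, in the same order of arrays. Both were lowest on the control Esam(hi) array without reaching 2-fold. Jak2, Stat5a and Stat5b were picked as examples after their values were seen.

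Of 18 negative regulators above background, 1 was 2-fold lower and none higher on the control Esam(hi) than on the control Esam(lo) array (median -0.25), where 11.2% of all genes were lower and 0.79% higher. It was Dok3, an adaptor that dampens signalling in myeloid and B cells, with 7.84 on the control Esam(hi) and 9.05 on the control Esam(lo) array, or 2.31-fold. Dok3 and Socs4, 2 of 18, were 2-fold higher on the array labelled RBPJ-deficient than on the control Esam(hi) array, where 12.9% of all genes were. Of 22 adaptors and kinases of the PI3-kinase and Ras-ERK routes, 2 were 2-fold lower and none higher on the control Esam(hi) than on the control Esam(lo) array (median -0.60 against -0.30 for all genes). That share lies near the 11.2% of all genes that were lower. They were the adaptor Shc1 (2.48-fold) and Sos2 (2.25-fold), an exchange factor that loads Ras with GTP. None of these genes stayed 2-fold apart with the trend removed.

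Other cytokine receptors gave more calls on the deposited values, but few with the trend removed. Of 17 above background, 6 were 2-fold lower and none higher on the control Esam(hi) than on the control Esam(lo) array (median -0.54 against -0.30 for all genes), where 11.2% of all genes were lower. With the trend removed 1 of the 17 was lower and 1 higher, where 456 of 9489 genes were lower and 198 higher. The largest difference was that of Il13ra1, an interleukin-4 and interleukin-13 receptor chain, which read 10.92 on the array labelled RBPJ-deficient, 7.86 on the control Esam(hi) array and 10.30 on the control Esam(lo) array. It was 5.40-fold lower on the control Esam(hi) than on the control Esam(lo) array and stayed 2-fold lower with the trend removed (-1.90). The interleukin-10 receptor chain Il10rb (2.43-fold), the interleukin-6 family signalling chain Il6st (2.39-fold), the interferon receptor chains Ifnar2 (2.25-fold) and Ifnar1 (2.17-fold) and the interleukin-6 receptor Il6ra (2.18-fold) did not. Il21r, the interleukin-21 receptor, went the other way, with 10.17 on the array labelled RBPJ-deficient, 11.28 on the control Esam(hi) array and 10.61 on the control Esam(lo) array. It was 2.16-fold lower on the array labelled RBPJ-deficient than on the control Esam(hi) array, and with the trend removed it was also 2-fold higher on the control Esam(hi) than on the control Esam(lo) array (1.04). It was named after its values were seen.

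Of 9 transcription factors that act at receptor genes, 2 were 2-fold lower on the control Esam(hi) than on the control Esam(lo) array and none higher, where 11.2% of all genes were lower. Ets2, an ETS factor, read 9.29 on the array labelled RBPJ-deficient, 6.58 on the control Esam(hi) array, below background, and 9.41 on the control Esam(lo) array, at least 4.73-fold lower on the control Esam(hi) than on the control Esam(lo) array. Irf8, needed for several DC and monocyte lineages, read 10.07 on the array labelled RBPJ-deficient, 8.58 on the control Esam(hi) array and 10.29 on the control Esam(lo) array (3.27-fold). The Irf8 call held with the trend removed (-1.22), and for Ets2 only the bound is given. Spi1, the gene for PU.1, which was picked after its values were seen, read 11.63 on the array labelled RBPJ-deficient, 11.28 on the control Esam(hi) array and 11.80 on the control Esam(lo) array, which is within 2-fold.

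Among genes that these cytokines induce through STAT5, 3 of 13 above background were 2-fold lower and none higher on the control Esam(hi) than on the control Esam(lo) array, where 11.2% of all genes were lower. The list's median was -0.21 against -0.30 for all genes. They were the survival gene Bcl2 (8.32 and 9.46), the cytokine gene Osm (2.07-fold) and the cyclin gene Ccnd3 (8.86 and 9.90), each pair of values given as control Esam(hi) and control Esam(lo). None held with the trend removed. Cish, a feedback inhibitor induced by STAT5, read 7.15 on all 3 arrays, just below background on the control Esam(hi) array, and Pim1, a kinase gene, read 12.44 on all 3. Both were picked after their values were seen. Between the array labelled RBPJ-deficient and the control Esam(lo) array no gene of these lists was 2-fold apart. The largest such difference was 0.62, for Il13ra1.

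**Figure D4:**
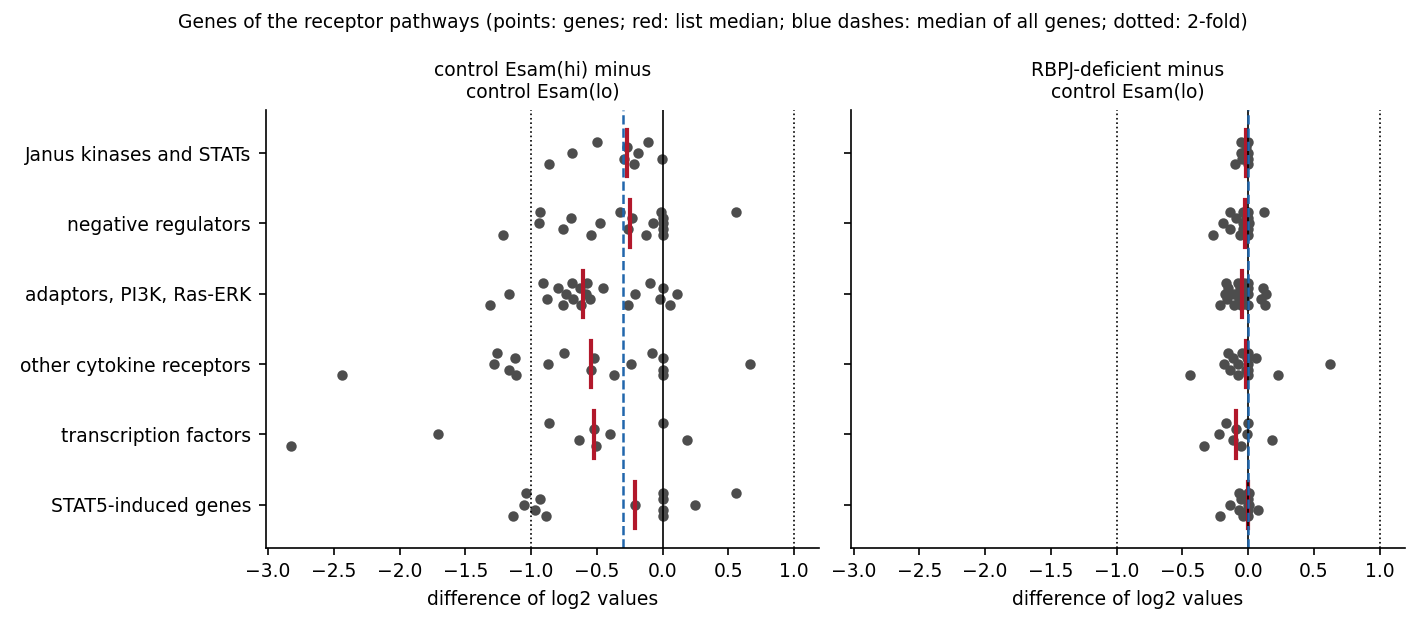
Difference of log2 values (horizontal axes) of the pathway genes above background in 6 lists, control Esam(hi) minus control Esam(lo) (left) and labelled RBPJ-deficient minus control Esam(lo) (right); red bars are list medians, blue dashes the median of all genes, dotted lines 2-fold. Il13ra1 (-2.43), Irf8 (-1.71) and Ets2 lie farthest out on the left, where the point for Ets2 rests on a value below background, and no gene reaches 2-fold on the right.

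Genes with the most alike pattern were found for the receptors that were 2-fold apart in any comparison, by the Euclidean distance between the log2 values on the 3 arrays less their mean, over 9254 other genes above background on at least 1 array, leaving out provisional symbols, small RNAs and gene segments. Nearest to Csf1r were Fcgr4, an IgG receptor (distance 0.15), the RNA sensor Tlr8 (0.15), the prostaglandin-degrading enzyme Hpgd (0.18) and Ets2 (0.19). All 4 were below background on the control Esam(hi) array, so their depth there is a bound. Nearest to Csf3r were Ceacam1 (0.05), Dpep2 (0.07), Abcd2 (0.09) and Tbc1d2b (0.09), with Abcd2 below background on the control Esam(hi) array. Ceacam1, an adhesion receptor, read 10.30 on the array labelled RBPJ-deficient, 8.44 on the control Esam(hi) array and 10.48 on the control Esam(lo) array. Nearest to Csf2rb2 were the growth factor gene Tgfb1, Lrrc25 and Gpr141 (each 0.05) and Rnf149 (0.06). Tgfb1 read 11.03 on the array labelled RBPJ-deficient, 10.39 on the control Esam(hi) array and 11.49 on the control Esam(lo) array. With 3 arrays many genes can lie this close, and the distances describe these arrays alone.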

How the data were processed

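Affymetrix Mouse Gene 1.0 ST arrays, 1 per group, measured total RNA of 3 sorted spleen DC populations. The deposited values are log2 expression values, made with RMA in Affymetrix Expression Console per the submitters' processing notes; their versions, and which arrays were normalized together, are not known here. Values were used as deposited. Genes were named from the platform annotation, using the 21789 of 35556 probe sets with 1 gene; of 19938 genes, 999 had several probe sets and the one with the highest mean was used. Members, gene lists and settings were chosen with earlier results of these data known. A gene entered a comparison where the brighter array was above background, and was called where the measured values were at least 2-fold apart, also where the dimmer one was below background. Single arrays give no error or p-value, so their number sets the precision. Where the dimmer array was below background, the fold is a lower bound against that level. The level trend is a running median over genes ordered by level. Named genes were the 8 receptors, up to 6 genes per list that were 2-fold apart, and the 4 most alike to each receptor 2-fold apart; others are named as examples. Counting was tested on simulated data. Python 3.11.15, numpy 2.4.6, pandas 2.3.3 and matplotlib 3.10.9 were used.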

Additional observations from a re-analysis of the deposited data

How the results depend on the processing

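The differences of the 8 receptor genes in 3 comparisons (24 values) were recomputed with arrays centred on their medians, quantile normalization, the level trend removed and the mean over probe sets. Each of these genes has 1 probe set, so the mean over probe sets returns the deposited values and could not change a call. In the other settings the 2-fold calls were the same except that of Csf2rb2, control Esam(hi) minus control Esam(lo). It was no longer 2-fold apart with quantile normalization (-0.83) and with the trend removed (-0.63). Signs turned for Kit alone, in the comparisons with the control Esam(hi) array and only with centring (-0.002 and 0.05). The ranges were -3.16 to -2.61 for Csf1r and -2.12 to -1.64 for Csf3r in the control comparison. Of the 8 receptor genes, 3 were 2-fold lower in that comparison as deposited, where 1067 of 9489 genes were. The number was 2 with quantile normalization (652 of 9537 genes) and 2 with the trend removed (456 of 9489). At least 1.5-fold lower were 4 of the 8, where 2945 of 9489 genes were, and at least 3-fold lower 2 of the 8, where 196 of 9489 were.

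Counts over all genes moved more. On the control Esam(hi) array against control Esam(lo), 75 genes were higher as deposited, 47 with centring, 150 with quantile normalization, 198 with the trend removed, 406 at 1.5-fold and 12 at 3-fold. Lower genes numbered 1067 as deposited, 1464 with centring, 652 with quantile normalization, 456 with the trend removed, 2945 at 1.5-fold and 196 at 3-fold. On the array labelled RBPJ-deficient against control Esam(hi), 1204 genes were higher as deposited and 1581 with centring. They numbered 720 with quantile normalization, 533 with the trend removed, 3015 at 1.5-fold and 257 at 3-fold. Lower genes there were 110 as deposited, 72 with centring, 211 with quantile normalization, 231 with the trend removed, 529 at 1.5-fold and 20 at 3-fold. Against control Esam(lo), 7 were higher as deposited, 3 among genes above the 75th percentile, 37 at 1.5-fold and 3 at 3-fold, and 18 were lower as deposited, 48 at 1.5-fold and 2 at 3-fold. The cause of these shifts was not tested. No paired analysis was possible because each group has 1 array.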
